A study of Mus musculus with 6 samples.

Results

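The 10 genes described here belong to the BCL2 family, the group of proteins that decides whether a cell commits to mitochondrial apoptosis. They were Bbc3, Bcl2l11, Hrk and Bid (BH3-only members), Bax and Bak1 (effectors), and Bcl2, Bcl2l1, Bcl2l2 and Mcl1 (anti-apoptotic members). They were picked by gene symbol, with earlier results of these data known but no threshold on a measured value. Other BH3-only genes, such as Bmf and Bad, were placed in a related list. All 10 members were found among the 35485 gene symbols of the expression tables. They were followed in retinas of 12-week-old wild type C57BL/6 mice, collected 2 days after optic nerve crush (ONC, called NC in some labels) or a sham operation. In ONC the nerve was pinched with forceps for 10 seconds, 2 mm behind the eyeball. In the sham group the nerve was exposed and left uncrushed. Each group had 3 samples, and each sample combined RNA from 6 retinas of 6 mice, so the spread between samples is a spread between pools and not between single animals. The labels name no treatment besides the operation.

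BCL2 family proteins share short BCL2 homology (BH) regions and meet on the outer mitochondrial membrane. Bax and Bak1 form the pores through which cytochrome c escapes, the anti-apoptotic members bind and restrain them, and BH3-only members are stress sensors that occupy the anti-apoptotic proteins or activate the effectors directly. Crushing the optic nerve injures the axons of RGCs (retinal ganglion cells), through which the eye signals to the brain, and RGC death after such an injury is known to require Bax. Much of the control of BCL2 family proteins is exerted on the protein, by binding, cleavage, relocation and degradation, which RNA-seq of whole retina does not measure.

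The summed exon reads ranged from 17343945 to 18349331 per sample in sham and from 20019818 to 20358008 in ONC. RPKM values, which divide a gene's exon reads by its exon length and by the sum of all reads on exons and introns, allow levels to be compared between genes. Fold changes were taken from exon reads with edgeR's quasi-likelihood test over 13670 genes, namely those whose mean RPKM exceeded 0.3 in sham or ONC. Where 3 values are listed for a group, they stand for its replicates 1, 2 and 3 in that order. A gene was called at a false discovery rate (FDR) under 0.1 and was counted as a differentially expressed gene (DEG) when its change also exceeded 1.5-fold. All adjusted p-values below are over all genes tested. The exon share of gene reads was 70.9% to 76.6% in sham and 78.5% to 80.4% in ONC. Since RPKM divides by both kinds of reads, it ran higher in ONC across genes, with a median log2 fold change over all genes of 0.131 when reads were scaled as for RPKM, against 0.01 with the scaling used for the test. Over all tested genes, the background for the marker counts below, 2.38% were called higher in ONC and 3.72% lower. Of 10 RGC markers 8 were called lower in ONC and 1 higher, and their summed RPKM was 434.6 to 453.2 in sham and 321.1 to 338.8 in ONC. In whole retina, fewer RGCs and less RNA per RGC cannot be told apart. Of the 9 microglia and macrophage markers tested, 3 were called higher, and the summed RPKM of that list of 10 was 11.5 to 15.1 in sham and 21.3 to 24.3 in ONC, with none at 0 in all samples. Rod markers, which define the retina as a tissue, summed to 19466 to 20198 RPKM in sham and 21236 to 22680 in ONC, with a median log2 fold change of -0.01 in the fit. Summed RPKM was also higher in every ONC sample for Müller glia and astrocyte markers (967.5 to 1070 against 1080 to 1092) and bipolar cell markers (225.3 to 256.0 against 257.0 to 259.2), neither list with a call by edgeR. Of 3 blood markers tested 1 was called lower, with a median of -0.85. Of the 6 rod markers 2 were called higher and of 6 amacrine and horizontal cell markers 2 lower. Lens markers summed to 8.24 to 64.1 in sham and 62.3 to 82.2 in ONC. The part of these shifts in the changes of the BCL2 family members was not tested.

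In sham retina the members spanned a wide range of abundance, and the anti-apoptotic members took most of it. Bcl2l2, which encodes the anti-apoptotic protein BCL-W, was the most abundant at 48.2 ± 3.22 RPKM (SD, n = 3). Bcl2l1, the gene of BCL-XL, followed at 20.4 ± 0.46, Mcl1 at 19.3 ± 1.75 and Bax at 18.9 ± 1.40. The samples of Mcl1 overlapped with those of Bcl2l1 and of Bax, so its place between them was not resolved, while every Bcl2l1 sample lay above every Bax sample. Bcl2l11, the gene of BIM, had 3.23 ± 0.212 RPKM and overlapped with Bcl2 at 3.08 ± 0.405, and Bak1 lay below both at 2.55 ± 0.181. Bid stood at 1.26 ± 0.271, Bbc3 at 0.879 ± 0.199 and Hrk at 0.225 ± 0.150. From Bak1 down to Hrk the samples of neighbouring genes did not overlap. The median RPKM of the tested genes was 7.04 in sham, so 4 members lay above it and 6 below, including every BH3-only member. In ONC the order kept Bcl2l2 at the top with 46.7 ± 0.21 RPKM, while Bbc3 (1.90 ± 0.416), Bid (1.84 ± 0.343) and Hrk (1.63 ± 0.0894) came to overlap.

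**Figure D1:**
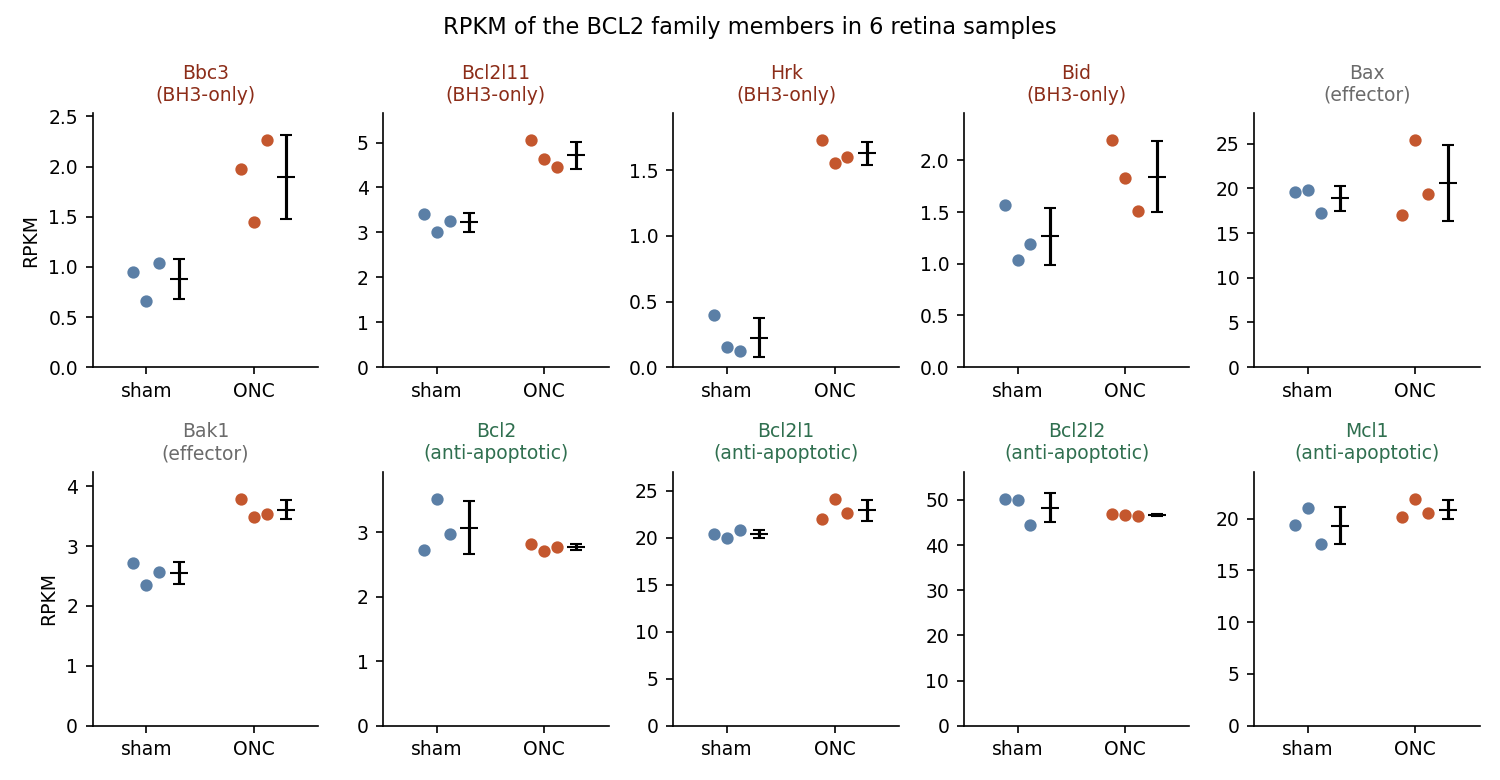
RPKM (vertical axes, each starting at 0) of the 10 members in each of the 3 sham (blue) and 3 ONC (orange) samples, with the group mean and SD in black beside the points. The ONC samples of Hrk lie between 1.56 and 1.73 and the sham samples between 0.122 and 0.397, while the groups of Bax, Bcl2l2 and Mcl1 overlap.

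Transcripts of 3 of the 4 BH3-only members (Hrk, Bbc3 and Bcl2l11) rose after ONC, and edgeR called neither the effectors nor the anti-apoptotic members. Other tools differed on 2 of these, with Bak1 called higher by limma and Bcl2l2 called lower by the DESeq2 test. At an unadjusted p under 0.05, edgeR gave 1 of 2 effectors (Bak1) and 2 of 4 anti-apoptotic members (Bcl2 and Bcl2l2), against 16.7% of all tested genes. Over all tested genes, edgeR called 2.38% higher and 3.72% lower in ONC, and it called no member lower. Hrk and Bbc3 also met the 1.5-fold limit of a DEG, against a background of 0.827% of all tested genes in that direction. In normalized exon reads, all 3 ONC samples lay above all 3 sham samples for 4 of the 10 members (Hrk, Bbc3, Bcl2l11 and Bak1), against 11.0% of all tested genes. All ONC samples lay below all sham samples for 2 members (Bcl2 and Bcl2l2), against 10.8%. The median log2 fold change was 0.70 over the BH3-only members, 0.19 over the effectors and -0.09 over the anti-apoptotic members, beside 0.01 over all tested genes. The BH3-only median describes these 4 genes only. Bad and Bmf, BH3-only genes outside the members, were at -0.06 and 0.04 and were not called by edgeR.

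**Figure D2:**
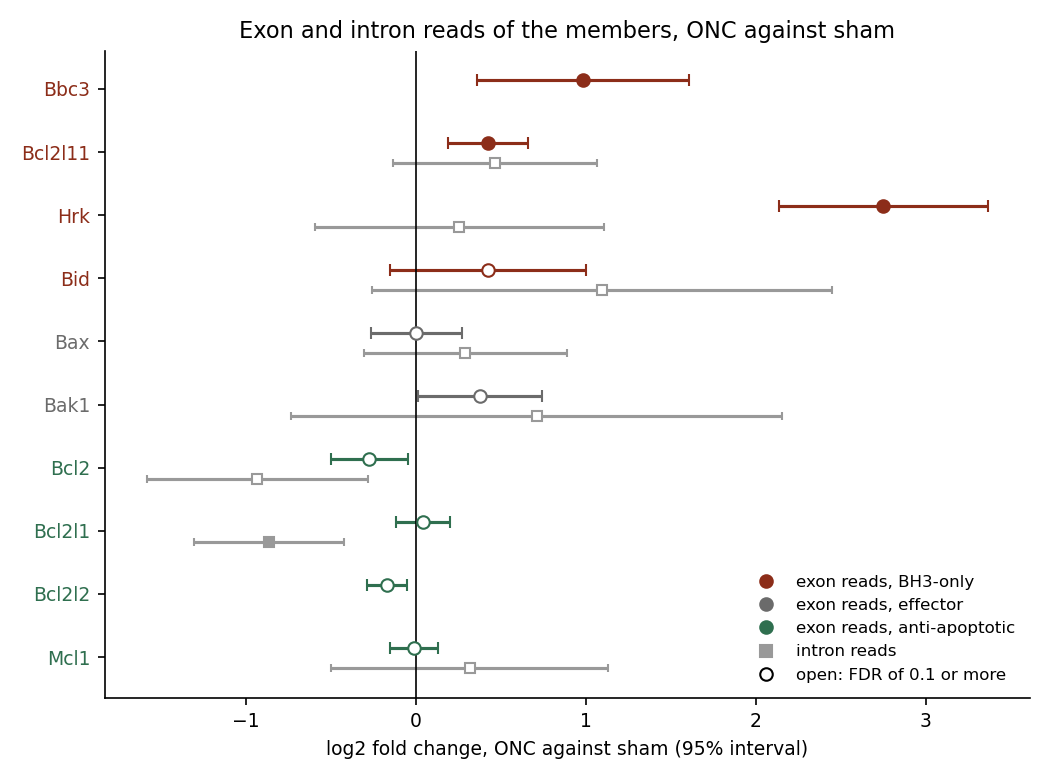
Log2 fold change of ONC against sham with its 95% interval (horizontal axis) for each member, from exon reads (circles, coloured by role) and, where enough reads were present, from intron reads (grey squares). Filled symbols have an FDR under 0.1, which on exons are Bbc3, Bcl2l11 and Hrk and on introns Bcl2l1 alone.

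Hrk changed most. It encodes Harakiri, a BH3-only protein best known from neurons deprived of trophic support, where it binds BCL-2 and BCL-XL. The gene spans chromosome 5 (GRCm38) from 118169764 to 118189478 and has 2 exons with 5366 bases in all. Its exon reads numbered 49, 20 and 16 in the sham pools against 235, 208 and 223 in the ONC pools. The lowest ONC sample held several times the reads of the highest sham sample, and sham replicate 1 stood above the other two sham samples. The log2 fold change was 2.75 (SE, the standard error, 0.29, 95% interval 2.14 to 3.36), which is 6.73-fold, with an adjusted p of 5.41e-06 from edgeR's quasi-likelihood test. Among the 13670 tested genes this was the log2 fold change of rank 24. Without sham replicate 1 it was 3.40, and in the other fits that left out 1 sample it ranged down to 2.49, each called. The median coverage along the Hrk transcript was 0 in each sham sample and 5, 7 and 7 in the ONC pools. Only 2.53% of Hrk exon reads spanned an exon junction. These junction reads numbered 0, 8 and 0 in sham and 7, 0 and 4 in ONC and showed no call (log2 fold change 0.26, SE 1.30, adjusted p = 0.968 from edgeR).

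Bbc3 encodes PUMA, a BH3-only protein that binds all the main anti-apoptotic members and is a classical target of p53. It lies on chromosome 7 from 16309583 to 16318334 with 4 exons. There were 43, 31 and 50 exon reads in the sham pools against 99, 71 and 116 in the ONC pools. The groups did not overlap, but the spread within ONC was wide for so few reads. This gave a log2 fold change of 0.98 (SE 0.30, 95% interval 0.36 to 1.61; adjusted p = 0.0755, edgeR), a 1.98-fold rise. This call was near the limit. It was lost without sham replicate 1 (adjusted p = 0.141, edgeR), sham replicate 2 (0.286), sham replicate 3 (0.114) or ONC replicate 3 (0.321), although the log2 fold change stayed between 0.79 and 1.17.

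Bcl2l11 encodes BIM, which binds all the main anti-apoptotic members and can activate BAX directly. It lies on chromosome 2 from 128126038 to 128162547 with 6 exons. It had 396, 362 and 402 exon reads in the sham pools against 644, 581 and 583 in the ONC pools. Every ONC sample exceeded every sham sample, and the change was small. Its log2 fold change was 0.42 (SE 0.11, 95% interval 0.19 to 0.66; adjusted p = 0.037, edgeR), or 1.34-fold, which is under the DEG limit. The call was lost without sham replicate 2 (log2 fold change 0.35, adjusted p = 0.195, edgeR) and held in the other 5 such fits.

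Bid, the BH3-only member that caspase-8 cleaves to link death receptors with mitochondria, was not called. The gene lies on chromosome 6 from 120893119 to 120916820. Its exon reads were 68, 47 and 55 in the sham pools against 105, 86 and 74 in the ONC pools, and after normalization the groups overlapped. The log2 fold change of 0.43 matched that of Bcl2l11 in size, but with fewer reads its 95% interval ran from -0.15 to 1.001 (adjusted p = 0.464, edgeR). A rise as large as that of Bcl2l11 could therefore not be told from none at this depth.

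For Hrk, Bbc3 and Bcl2l11, the 3 members called on exon reads, the 250 bases before the transcription start are shown. They are given as in RefSeq on GRCm38.p6, written in the direction of transcription. Shared control of these 3 genes was not tested. Capitals mark the match to any of 7 short sequences searched on both strands: the CRE motif TGACGTCA, the AP-1 motifs TGACTCA and TGAGTCA (each the reverse complement of the other), the CHOP-type composite TGATGCAA, the forkhead motif GTAAACA, the E2F motif TTTCCCGC and the E-box CACGTG.
Hrk, chr5:118169514-118169763, plus strand: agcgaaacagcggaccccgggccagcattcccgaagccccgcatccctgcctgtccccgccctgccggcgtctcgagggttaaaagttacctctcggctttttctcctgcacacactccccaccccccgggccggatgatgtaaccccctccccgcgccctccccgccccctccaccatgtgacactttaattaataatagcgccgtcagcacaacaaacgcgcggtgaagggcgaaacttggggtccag
Bbc3, chr7:16309333-16309582, plus strand: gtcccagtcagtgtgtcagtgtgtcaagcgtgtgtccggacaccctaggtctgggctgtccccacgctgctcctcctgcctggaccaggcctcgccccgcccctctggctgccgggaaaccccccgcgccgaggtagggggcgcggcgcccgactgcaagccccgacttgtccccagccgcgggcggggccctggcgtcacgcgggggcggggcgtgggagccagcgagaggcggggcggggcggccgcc
Bcl2l11, chr2:128125788-128126037, plus strand: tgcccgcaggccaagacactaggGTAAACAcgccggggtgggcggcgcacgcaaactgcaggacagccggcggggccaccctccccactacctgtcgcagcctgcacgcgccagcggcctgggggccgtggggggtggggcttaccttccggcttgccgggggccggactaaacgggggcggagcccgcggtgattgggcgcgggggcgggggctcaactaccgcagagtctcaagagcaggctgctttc
The window of Bcl2l11 held 1 exact match, the forkhead letters GTAAACA beginning 227 bases before the start, and the windows of Hrk and Bbc3 held none. Among 32851 promoter windows of the same length, 3.17% held GTAAACA on either strand. The only other match in the 10 members was CACGTG in Bax, beginning 9 bases before its start, letters found in 6.02% of all windows. TGACGTCA was present in 1.55% of all windows, TGACTCA or its reverse complement in 4.46%, TGATGCAA in 0.791% and TTTCCCGC in 0.895%, and none of these in a member. Only exact letters were searched, so near matches were not counted. A match is only a match of letters, and its absence says nothing about variants of a motif or about sites elsewhere. The 3 windows were rich in G and C, with 63.2% in Hrk, 76.4% in Bbc3 and 72.0% in Bcl2l11 against a median of 52.4% over all windows. Those of the other members ranged from 47.6% in Bcl2l1 to 74.8% in Bcl2.

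Neither effector was called by edgeR. Bax, the pore-forming protein on which RGC death depends in mice, lies on chromosome 7 from 45461695 to 45466898. Its exon reads were 391, 412 and 367 in the sham pools against 375, 549 and 437 in the ONC pools. The groups overlapped, and ONC replicate 2 alone stood high. The log2 fold change was 0.00 (95% interval -0.27 to 0.27, adjusted p = 0.993, edgeR), so that a change beyond 1.21-fold in either direction lay outside the interval. Its sign differed between normalizations. Bak1, the second pore-forming member, lies on chromosome 17 from 27019812 to 27028626. It had 125, 113 and 126 exon reads in the sham pools against 192, 174 and 184 in the ONC pools. The groups did not overlap, yet the log2 fold change of 0.38 (SE 0.17, 95% interval 0.02 to 0.74) did not pass (adjusted p = 0.276, edgeR). With the scaling of RPKM it passed, at 0.50 (adjusted p = 0.0963, edgeR), and limma on log2(RPKM) called it at pseudocounts of 0.1 (adjusted p = 0.0801), 1 (0.0571) and 0.01 (0.0876). Only 44.2% of the Bak1 exon reads were uniquely placed, and the gene overlaps Ggnbp1, which had 19 to 52 exon reads per sample. Since strand was not stated as used in counting, reads of these genes cannot be fully separated.

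None of the 4 anti-apoptotic members was called by edgeR, and their log2 fold changes ranged from -0.27 to 0.04. Bcl2, whose protein gives the family its name, lies on chromosome 1 from 106538179 to 106714290. It had 487, 654 and 563 exon reads in the sham pools against 552, 524 and 559 in the ONC pools. After normalization all ONC samples lay below all sham samples. For Bcl2 the log2 fold change was -0.27 (SE 0.11, 95% interval -0.50 to -0.04; adjusted p = 0.204, edgeR). Leaving out sham replicate 1 or ONC replicate 1 gave a call, at -0.37 (adjusted p = 0.0917, edgeR) and -0.30 (0.098). Of the Bcl2 exon reads 83.1% were uniquely placed.

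Bcl2l1, on chromosome 2 from 152780668 to 152831682, yields the long form BCL-XL and a short pro-apoptotic form by alternative splicing, which gene-level counts do not separate. It had 1112, 1132 and 1210 exon reads in the sham pools against 1319, 1424 and 1391 in the ONC pools. These raw reads were higher in ONC, as were the library totals, and the normalized groups overlapped. For Bcl2l1 the log2 fold change was 0.04 (95% interval -0.11 to 0.20, adjusted p = 0.825, edgeR). Mcl1, a short-lived protein that restrains BAK and is removed by the proteasome, lies on chromosome 3 from 95658721 to 95663179. It had 1551, 1760 and 1500 exon reads in the sham pools against 1775, 1902 and 1858 in the ONC pools. Its log2 fold change was -0.01 (95% interval -0.15 to 0.13, adjusted p = 0.954, edgeR), and the sign turned with the scaling of RPKM, which gave 0.11.

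Bcl2l2, on chromosome 14 from 54883425 to 54888234, supports the survival of adult neurons and was the deepest-read member. It had 4000, 4138 and 3771 exon reads in the sham pools against 4099, 4029 and 4168 in the ONC pools. After normalization all ONC samples lay below all sham samples by a narrow margin. For Bcl2l2 the log2 fold change was -0.17 (SE 0.06, 95% interval -0.29 to -0.05; adjusted p = 0.113, edgeR). It passed with the DESeq2 test (adjusted p = 0.0482), with a filter at a mean RPKM over 1 (0.0944, edgeR) and without ONC replicate 1 (0.0189, edgeR). On the linear scale the ONC level was 0.89 of the sham level, with a 95% interval from 0.82 to 0.966. The 95% intervals of Bcl2l1, Bcl2l2 and Mcl1 were narrower than that of any BH3-only member.

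The members were also summed by role, as RPKM per sample. The BH3-only sum was 6.33, 4.85 and 5.61 in the sham pools against 11.0, 9.46 and 9.84 in the ONC pools. The ONC samples were all higher, and the mean was 5.59 ± 0.740 in sham and 10.1 ± 0.777 in ONC (SD, n = 3), a ratio of 1.80. With exon reads per kilobase scaled as for the test, the ratio was 1.66. The anti-apoptotic sum was 92.7, 94.4 and 85.9 in sham and 91.7, 95.5 and 92.4 in ONC, and the groups overlapped. This overlap was in RPKM, where the ratio of ONC to sham was 1.02. With exon reads per kilobase scaled as for the test, the anti-apoptotic ratio was 0.941. The effector sum was 22.3, 22.1 and 19.8 in sham and 20.8, 28.9 and 22.9 in ONC, and these overlapped as well. For every 100 RPKM of anti-apoptotic transcripts there were thus 6.82, 5.14 and 6.52 RPKM of BH3-only transcripts in sham and 11.9, 9.91 and 10.7 in ONC. This quotient is free of library scaling. Transcripts of these 4 BH3-only members remained a small fraction of those of the 4 anti-apoptotic members in both groups. The sum leaves out other BH3-only genes, among them Bad and Bmf, which edgeR did not call. Bad had 8.4, 7.2 and 7.5 RPKM in sham and 7.0, 8.4 and 8.7 in ONC. Bmf had 3.7, 4.4 and 3.0 RPKM in sham and 3.9, 3.8 and 4.7 in ONC.

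**Figure D3:**
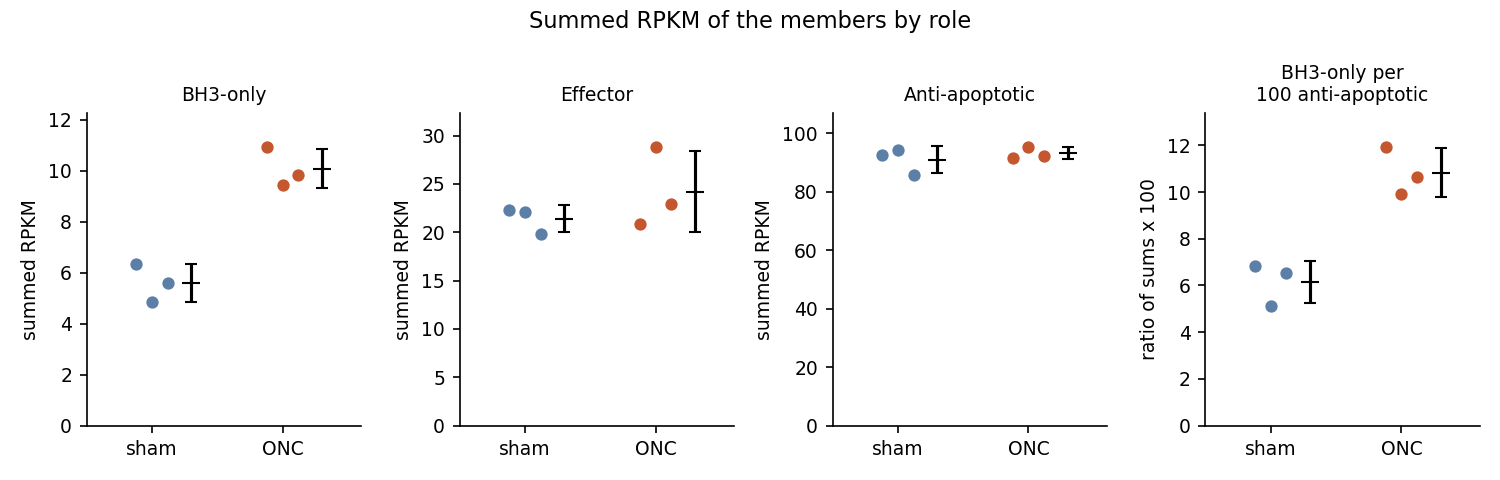
Summed RPKM (vertical axes, from 0) of the BH3-only, effector and anti-apoptotic members, and the BH3-only sum per 100 RPKM of anti-apoptotic members, in 3 sham (blue) and 3 ONC (orange) samples, with mean and SD in black. The BH3-only sum and the quotient separate the groups, at 5.59 against 10.1 and 6.16 against 10.8 on average, and the other sums overlap.

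The make-up of the BH3-only sum is given as a description, with no test. Bcl2l11 supplied 58.0% ± 3.91 of it in sham and 46.8% ± 1.91 in ONC (SD, n = 3). Hrk supplied 6.27%, 3.22% and 2.18% in the sham pools against 15.8%, 16.5% and 16.3% in the ONC pools. In ONC its share lay close to those of Bid, at 18.2% ± 2.52, and Bbc3, at 18.8% ± 3.92. Without Bcl2l11 the sum was 2.37 ± 0.530 RPKM in sham and 5.37 ± 0.538 in ONC, a ratio of 2.27.

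Reads on introns, taken as all gene reads less exon reads, can come from unspliced RNA and were tested on their own for the 8 members with enough of them, among 12056 genes. Bbc3 and Bcl2l2 had too few. No member was called higher, against 0.506% of all tested genes, and none had an unadjusted p under 0.05 in that direction. Of the 8 members 1 was called lower, against 2.30% of all tested genes. That gene was Bcl2l1, with 162, 203 and 253 intron reads in the sham pools against 93, 101 and 134 in the ONC pools. The groups did not overlap, and the log2 fold change was -0.86 (SE 0.21, adjusted p = 0.07, edgeR). The call was lost without sham replicate 2 (adjusted p = 0.13, edgeR), sham replicate 3 (0.184), ONC replicate 2 (0.342) or ONC replicate 3 (0.208), and the log2 fold change stayed between -0.97 and -0.75. Intron reads of Bcl2 were 65, 132 and 161 in sham and 54, 68 and 56 in ONC (log2 fold change -0.93, adjusted p = 0.14, edgeR). The intron share of all gene reads was lower in every ONC sample than in every sham sample, as the exon shares above show, and its part in these values was not tested.

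The rise of Hrk was seen on exons and was not called on introns. Its intron reads numbered 35, 37 and 25 in the sham pools against 34, 44 and 34 in the ONC pools. The groups overlapped, with a log2 fold change of 0.26 (95% interval -0.59 to 1.10, adjusted p = 0.781, edgeR). Introns held 41.7%, 64.9% and 61.0% of the Hrk reads in sham and 12.6%, 17.5% and 13.2% in ONC. The difference between the exon and intron log2 fold changes of Hrk was 2.61 (95% interval 1.5 to 3.71) in a joint fit over 11437 genes. Its p of 0.000184 came to an adjusted p of 0.113 (edgeR), which missed the threshold, and without sham replicate 1 the difference was 3.03 with an adjusted p of 0.0756. Leaving out any other sample gave differences of 2.30 to 2.79 with adjusted p from 0.19 to 0.447 (edgeR), none called. In that fit 0.0350% of genes were called and none of the 8 members, of which Hrk and Bcl2l1 had an unadjusted p under 0.05. For Bcl2l1 the difference was 0.90 (95% interval 0.46 to 1.34, adjusted p = 0.157, edgeR). Bcl2l11 had an intron log2 fold change of 0.47 (SE 0.28, adjusted p = 0.41, edgeR), beside 0.42 on exons, and a difference of -0.01 (95% interval -0.65 to 0.62).

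**Figure D4:**
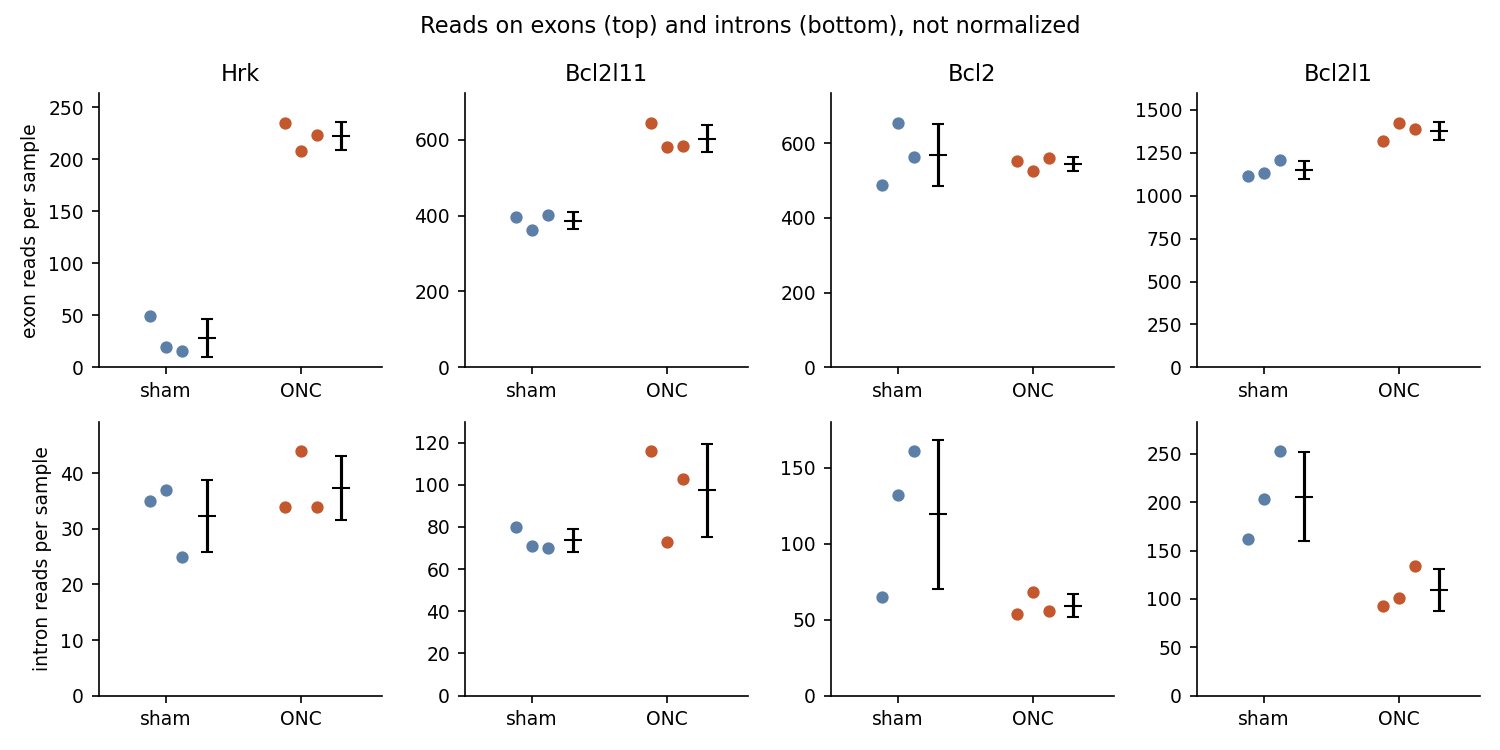
Reads on exons (top row) and introns (bottom row), as deposited and not normalized, for Hrk, Bcl2l11, Bcl2 and Bcl2l1 in 3 sham (blue) and 3 ONC (orange) samples, with mean and SD in black. Exon reads of Hrk rise from at most 49 to at least 208 while its intron reads stay between 25 and 44, and intron reads of Bcl2l1 lie at 162 or more in sham and at 134 or less in ONC.

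Genes around the family were examined by list. Among 15 other BCL2 family genes, 10 passed the low-value filter, with a list median log2 fold change of 0.01. Of these 10, edgeR called none higher, against 2.38% of all tested genes, and 1 lower, against 3.72%. That gene was Bnip3, a mitochondrial protein of mitophagy and the hypoxia response, at -0.22 (SE 0.07, adjusted p = 0.0755, edgeR), a call that was lost with the scaling of RPKM (-0.09, adjusted p = 0.481) and without sham replicate 1 (0.105), sham replicate 2 (0.31), sham replicate 3 (0.216) or ONC replicate 3 (0.2). Bmf and Bad, BH3-only genes of this list, were not called. Bmf had 396, 493 and 335 exon reads in sham and 455, 436 and 569 in ONC, and Bad had 279, 252 and 267 in sham and 258, 302 and 329 in ONC. Pmaip1, the gene of NOXA, which targets MCL-1, fell under the filter. It had 5, 0 and 1 exon reads in the sham pools against 13, 18 and 14 in the ONC pools, and without the filter its log2 fold change was 2.62 (SE 1.04, adjusted p = 0.144, edgeR). Bcl2a1b, a member of the A1 group of near-identical copies whose reads may be shared, had 0, 1 and 0 reads in sham and 3, 10 and 7 in ONC and was not called by edgeR (adjusted p = 0.175). By limma on log2(RPKM + 0.1) it was the 1 gene of the list called higher (adjusted p = 0.0901), and none was called lower.

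The list of 15 genes of the mitochondrial death machinery, which includes cytochrome c and Apaf1, had a median log2 fold change of -0.01. Of these 15, edgeR called none higher, against 2.38% of all tested genes, and 1 lower, against 3.72%. The gene called was Xiap, an inhibitor of caspases, with 13970, 14422 and 13734 exon reads in sham and 14650, 13292 and 13270 in ONC (log2 fold change -0.24, SE 0.06, adjusted p = 0.0218, edgeR). That call was lost with the scaling of RPKM (-0.12, adjusted p = 0.242) and without sham replicate 2 (0.109), sham replicate 3 (0.114) or ONC replicate 3 (0.131). Apaf1, the scaffold of the apoptosome, had 418, 427 and 340 reads in sham and 417, 478 and 507 in ONC and was not called. Of 8 genes that control the stability of the MCL1 and BIM proteins, such as the ubiquitin ligase gene Huwe1 and the deubiquitinase gene Usp9x, none was called in either direction by edgeR, the DESeq2 test or limma. With an unadjusted p under 0.05 in edgeR there was 1, Usp9x, at a log2 fold change of -0.19, against 16.7% of all tested genes.

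The list of transcription factors known to act on BCL2 family genes held the most calls. Of 13 such genes 12 were tested, and edgeR called 5 higher, against 2.38% of all tested genes, and none lower. The list median log2 fold change was 0.24. This list was drawn up with earlier results of these data known. The authors had already reported Atf3, Atf4, Ddit3 and Jun as higher in ONC from these same samples. They also reported Atf3, Ddit3 and Jun as higher by RT-PCR on separate retinas. Atf3, a stress-induced bZIP factor, had 224, 105 and 138 exon reads in the sham pools against 914, 858 and 909 in the ONC pools. As for Hrk, sham replicate 1 was the highest sham sample, and the log2 fold change was 2.30 (SE 0.18, adjusted p = 7.95e-08, edgeR). Ddit3, the gene of CHOP, changed by 0.98 (SE 0.09) and Atf4, which drives the integrated stress response, by 0.56 (SE 0.06). Jun, the AP-1 subunit that JNK phosphorylates, changed by 0.88 (SE 0.08). Atf3, Ddit3, Atf4 and Jun were each called in all 17 alternatives tried on exon reads, junction reads aside. Stat3 changed by 0.32 (SE 0.08, adjusted p = 0.0258, edgeR) and lost its call without sham replicate 3 (0.184) or ONC replicate 3 (0.173) and with limma at pseudocounts of 0.1 (0.162) and 0.01 (0.172). Trp53, the gene of p53, had 213, 228 and 230 reads in sham and 290, 276 and 306 in ONC and was not called (log2 fold change 0.16, adjusted p = 0.58, edgeR), and neither were Foxo1 at 0.06 and Foxo3 at -0.26.

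Of 10 genes of the JNK cascade, the kinase path from axon injury to Jun, edgeR called none higher and 2 lower. Over all tested genes the shares were 2.38% higher and 3.72% lower. Mapk10, the gene of the neuronal kinase JNK3, had 2107, 2081 and 2075 exon reads in sham and 1893, 1878 and 1934 in ONC, with a log2 fold change of -0.35 (SE 0.06, adjusted p = 0.00199, edgeR). The call of Mapk10 held with the scaling of RPKM (-0.23, adjusted p = 0.0741, edgeR). It was lost with limma at pseudocounts of 0.1 (adjusted p = 0.196), 1 (0.179) and 0.01 (0.196). Map3k13, the gene of the kinase LZK, changed by -0.26 (SE 0.08, adjusted p = 0.0829, edgeR). The call of Map3k13 was lost without sham replicate 1 (adjusted p = 0.165, edgeR), sham replicate 2 (0.28), sham replicate 3 (0.167), ONC replicate 2 (0.305) or ONC replicate 3 (0.187), and with the scaling of RPKM (-0.14, adjusted p = 0.369, edgeR). Map3k12, the gene of DLK, had a log2 fold change of 0.12 and was not called (adjusted p = 0.451, edgeR), but was called higher with the scaling of RPKM (0.25, adjusted p = 0.0687).

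**Figure D5:**
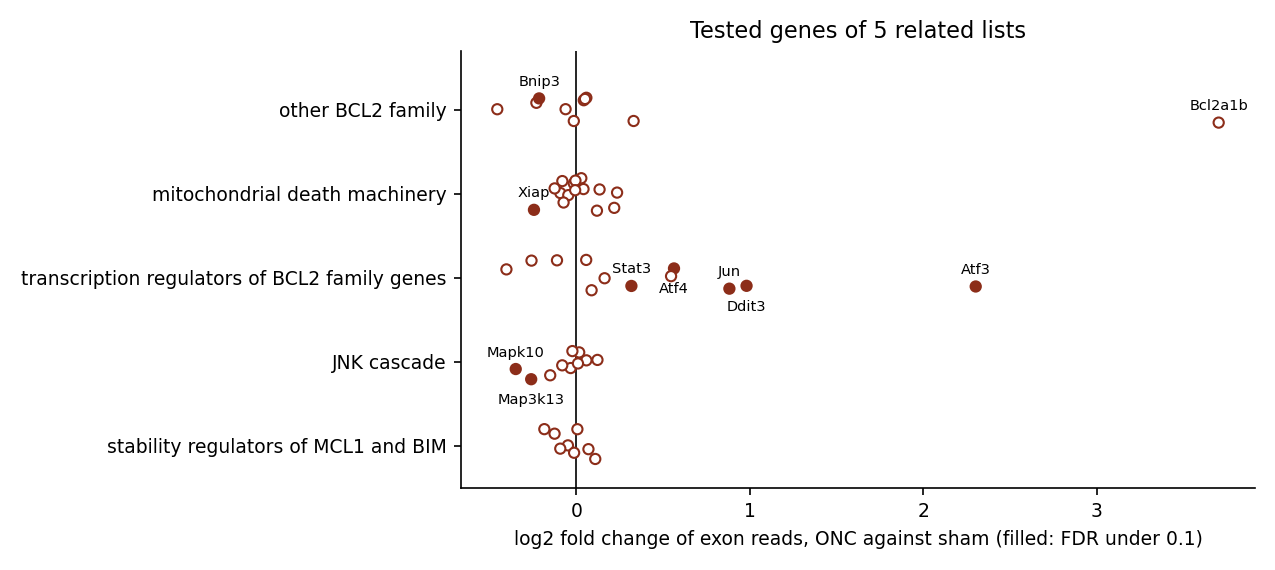
Log2 fold change of exon reads, ONC against sham (horizontal axis), for each tested gene of 5 related lists, with genes called at an FDR under 0.1 filled and named. Points are spread vertically only for legibility, and Bcl2a1b at the far right rests on at most 10 reads per sample. Transcription regulators hold 5 filled points above 0, up to 2.30 for Atf3, and the other lists hold 0 to 2 filled points, all below 0.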

How the data were processed

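Whole retinas of 6 pooled samples, 3 sham and 3 ONC, were sequenced by the authors from TruSeq libraries on 1 HiSeq lane and mapped with CLC Genomics Workbench 6.0.1. The build named is mm9, but gene positions in the deposited tables lie within 1000 bases of those of RefSeq GRCm38.p6 for 84.7% of shared symbols and of NCBIM37 for 4.198%, so GRCm38 is given here. The deposited tables hold, per the file headers, counts of exon, gene and exon-exon reads, RPKM as computed by the authors, and median coverage (signal) per gene. A column of the authors' group means was not used. Groups were taken from the treatment labels.

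Exon reads were normalized by TMM and tested with edgeR 4.0.16 (R 4.3.3), quasi-likelihood, two-sided, with Benjamini-Hochberg adjustment. Genes needed a mean RPKM over 0.3 in either group. Intron reads (gene less exon reads) were tested likewise where at least 10 were present in at least 3 samples, and a joint fit compared exon with intron changes. Alternatives used DESeq2 1.42.0, limma 3.58.1 on log2(RPKM + 0.1), other scalings and filters, and fits leaving out each sample. Scripts were tested on simulated data. Read depth limited precision most for Hrk, Bbc3 and Bid. Reads carry no molecular identifiers. Role sums are descriptions without a test. The members and the related lists were chosen with earlier results of these data known, all members are named, and genes of the related lists are named when called (at most 6 per list) or, as with Bmf, Bad, Pmaip1, Bcl2a1b, Apaf1, Trp53, Foxo1, Foxo3 and Map3k12, for their known role after their values were seen. Promoter windows were those whose start lay nearest to the 5′ end of the gene in the tables, and all 10 members had a window. That start lay 46 bases from the 5′ end for Bcl2l1, 4 for Bid and 1 for Bak1, and at it for the other members. Bbc3 and Bcl2l1 had 3 windows each and Bcl2l11 had 2, and only the nearest of each was shown or searched as the member's window.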

Additional observations from a re-analysis of the deposited data

Results flagged for a closer look

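Reads that span exon junctions and the median coverage were set beside the exon reads. Of the members not called on exon reads, Bcl2 separated the groups in junction reads alone and Bak1 in both. Median coverage of Bcl2 overlapped, at 12, 15 and 14 in sham and 12, 13 and 14 in ONC. Over the 13670 tested genes, all ONC samples lay above all sham samples for 9.92% in junction reads relative to the library's exon reads and for 34.2% in median coverage, which is not normalized for the larger ONC libraries. Junction reads of Bcl2 numbered 3, 7 and 11 in the sham pools against 25, 20 and 15 in the ONC pools, a mean of 20 in ONC against 7 in sham, opposite in direction to its exon reads. Junction reads were 2.43% of its exon reads, and the log2 fold change of 1.29 (SE 0.66) was not called (adjusted p = 0.427, edgeR). Bak1 had 55, 38 and 59 junction reads in sham and 92, 76 and 87 in ONC, a mean of 85.0 in ONC against 50.7 in sham, with a log2 fold change of 0.53 (SE 0.27, adjusted p = 0.417, edgeR). Its median coverage was 12, 10 and 10 in sham and 19, 18 and 16 in ONC, a mean of 17.7 in ONC against 10.7 in sham. Between pairs of sham samples, exon reads differed by a chi-square per degree of freedom of 5.545, 7.573 and 9.002. In ONC it was 13.75 and 10.81 for replicate 1 against replicates 2 and 3, and 4.539 between replicates 2 and 3. Groups of 3 samples were too small to test for outlying samples.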

How the results depend on the processing

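Of the 10 members, 3 were called on exon reads and 833 genes in all (325 higher, 508 lower). The scaling of RPKM called 4 members and 1730 genes (1507 higher, 223 lower), limma called 255 genes with a pseudocount of 0.1 and 214 with 0.01, and an FDR under 0.05 left 2 members and 515 genes. Exon-exon reads, added after seeing the data, called 0 members (none with an unadjusted p under 0.05, edgeR) and 380 genes. Leaving out 1 sample gave 1 member (without sham replicate 2) to 5 members (without ONC replicate 1) and 371 to 2031 genes in the same fits, 400 without sham replicate 3, 435 without ONC replicate 2 and 452 without ONC replicate 3. Outside exon-exon reads, Hrk was called in every alternative, Bcl2l11 in all but that without sham replicate 2, and Bbc3 in all but an FDR under 0.05, limma with a pseudocount of 0.1 or 0.01 and the fits without sham replicate 1, 2 or 3 or ONC replicate 3.

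On introns, 1 member and 338 genes were called, 2 members and 1321 genes (1303 lower) with exon-read normalization, 2 members and 1082 genes when at least 1 intron read sufficed, and 0 to 2 members and 0 to 897 genes when 1 sample was left out. Exon against intron changes gave 0 members and 4 genes, 1 member and 28 genes without sham replicate 1, and 0 members and 0 to 3 genes without any other sample. The BH3-only sum had a ratio of 1.80 between ONC and sham, 1.66 with TMM-normalized exon reads per kilobase, and 2.27 without Bcl2l11. The anti-apoptotic sum had a ratio of 1.02, and 0.941 with TMM-normalized exon reads per kilobase.

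Members that were not called changed sign as follows. Bax went from 0.0024 to -0.0025 with DESeq2 size factors and with the DESeq2 test, -0.0018 with RPKM over 1, -0.0029 with filterByExpr, -0.00195 with unique reads, -0.0102 with the replicate block, and -0.16 to 0.11 when 1 sample was left out. Mcl1 was at 0.11 with the scaling of RPKM and with limma at each pseudocount, and -0.0357 to 0.0329 when 1 sample was left out. On exon-exon reads Bid was at -0.0481 and Bcl2 at 1.29. Intron reads of Hrk were at -0.0037 with exon-read normalization. Exon less intron change ranged from -0.73 to 0.11 for Bak1 and from -0.17 to 0.17 for Bcl2l11 when 1 sample was left out. Among the related lists, the scaling of RPKM called 1 gene of the death machinery higher and none lower, and 1 gene of the JNK cascade higher and 1 lower, while limma at a pseudocount of 0.1 called none of either list. The cause was not tested.

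Samples with the same replicate number did not deviate together (correlations -0.0591, -0.0252 and 0.00695), so the pairing rests on a number alone. With the replicate block 3 members and 728 genes were called on exons, and 1 member and 302 genes on introns.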
